A study of Mus musculus with 2 samples.

Results

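The 8 genes described here encode tissue factor (F3), coagulation factor X (F10), urokinase (Plau), the urokinase receptor (Plaur), the urokinase inhibitor SerpinB2 (Serpinb2), thrombospondin (Thbs1), the endothelial protein C receptor (Procr) and thrombomodulin (Thbd). They were picked by symbol. Each symbol matched 1 gene identifier, so all 8 were found among 55536 annotated genes, of which 22028 are protein-coding. RNA was taken from the chromatin fraction of mouse bone marrow-derived macrophages of strain C57BL/6J. The cells had been exposed for 75 min to 100 ng/ml lipid A, the moiety of bacterial lipopolysaccharide that Toll-like receptor 4 senses. There is 1 group with 2 libraries, labelled biological replicates 1 and 2, which were depleted of ribosomal RNA and started from 250 ng and 500 ng of material. Both carry 1 donor label and no separate mice are named, so the spread between them may be that of cultures. No untreated cells were analysed here. The values are therefore levels under lipid A, and no response to it can be read from them.

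Tissue factor is the membrane receptor that starts the extrinsic pathway of coagulation: it binds factor VIIa, and that pair activates factor X. Monocytes and macrophages are known to make tissue factor when they meet lipopolysaccharide. Thrombomodulin and the protein C receptor work in the opposite direction, because they promote activation of the anticoagulant protein C. Urokinase bound to its receptor turns plasminogen into plasmin, which dissolves fibrin and opens tissue to migrating cells, and SerpinB2 inhibits urokinase. Thrombospondin is a secreted matrix protein that binds CD36 and CD47.

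The start regions of 4 genes are printed first, because 1 short motif was found in all of them. RefSeq promoter windows (GRCm38.p6) matched 5 of the 8 genes: F3, F10, Plaur, Serpinb2 and Procr. The 250 bases before each RefSeq start were searched on both strands for 5 motifs. These were the AP-1, kB-like, GC box, TATA box and cyclic AMP response element motifs, spelled out beside their frequencies. Capitals mark the matches. All 4 sequences are on the plus strand, from chr3:121723287-121723536 (F3), chr7:24462233-24462482 (Plaur), chr1:107511173-107511422 (Serpinb2) and chr2:155750967-155751116 (Procr). For Procr only the first 150 bases of the window are shown, since its GENCODE start lies 100 bases before the RefSeq start.
F3: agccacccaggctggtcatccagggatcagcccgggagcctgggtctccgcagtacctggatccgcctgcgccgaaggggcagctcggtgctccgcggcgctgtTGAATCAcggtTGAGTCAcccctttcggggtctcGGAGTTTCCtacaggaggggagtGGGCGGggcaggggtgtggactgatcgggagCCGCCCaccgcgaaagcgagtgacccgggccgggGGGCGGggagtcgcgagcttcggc
Plaur: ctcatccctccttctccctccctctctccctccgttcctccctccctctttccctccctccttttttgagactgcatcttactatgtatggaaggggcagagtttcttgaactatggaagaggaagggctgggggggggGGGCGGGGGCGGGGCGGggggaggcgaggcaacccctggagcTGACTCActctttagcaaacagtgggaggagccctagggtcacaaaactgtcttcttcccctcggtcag
Serpinb2: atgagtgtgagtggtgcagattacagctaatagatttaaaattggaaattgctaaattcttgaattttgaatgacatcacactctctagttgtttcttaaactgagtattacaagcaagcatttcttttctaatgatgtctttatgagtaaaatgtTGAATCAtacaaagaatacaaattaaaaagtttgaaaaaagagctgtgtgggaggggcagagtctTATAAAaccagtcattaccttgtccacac
Procr: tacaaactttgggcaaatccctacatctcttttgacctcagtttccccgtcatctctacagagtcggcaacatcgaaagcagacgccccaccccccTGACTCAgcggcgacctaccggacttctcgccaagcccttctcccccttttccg

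The AP-1 motif TGANTCA was present in 4 of the 5 windows searched and in 6.75% of all 32851 promoter windows of that length. The 4 printed windows are those that held it, and 5 windows are too few to set against that share. F3 held it at 2 places, from 146 and from 135 bases before the start, followed by a kB-like match from 112 bases before it. The kB-like motif GGANTTTCC was found in 1.07% of all windows. F3 also had 3 matches to the GC box GGGCGG and Plaur had 3, of which the last 2 share a base. The GC box occurred in 32.7% of windows. Serpinb2 had a TATAAA 29 bases before its start, a motif found in 12.4% of windows. The cyclic AMP response element TGACGTCA occurred in 1.55% of windows and in none of the 5. In the F10 window (chr8:13037058-13037307) no motif was matched. These are letter matches and no binding was measured.

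Library depth was 21453617 estimated counts on annotated genes in replicate 1 and 29638814 in replicate 2. Levels are in TPM, which scales reads by transcript length and by the total of the library, so genes can be compared. Reads that fall in introns count only where a transcript annotated across that intron exists. The median protein-coding gene at 1 TPM or more in both libraries stood at 5.82 TPM in replicate 1 and 10.4 TPM in replicate 2. A raw TPM can thus rise between the libraries while a gene falls in rank. Of 7 macrophage markers, 6 were at 1 TPM or more in both libraries, with a summed level of 166 and 265 TPM. The exception was Fcgr1, at 0.93 and 2.09 TPM. Cell types known for making some of the 8 proteins were also checked. All 6 hepatocyte markers had 0 counts. Of 7 endothelial markers only Egfl7 passed (1.62 ± 0.0283 TPM, SD, n = 2), but Kdr had the highest mean, at 0.94 and 3.17 TPM. Tek, Tie1 and Emcn were at 0.01 TPM or less. In the authors' second quantification, made from the reads and a transcript index, 2 endothelial markers passed, Kdr (1.81 and 5.53 TPM) and Pecam1 (3.36 and 8.68 TPM). No fibroblast or neutrophil marker passed. Of 8 platelet and megakaryocyte markers, Itga2b, Pf4 and Treml1 passed, the highest being Treml1 at 7.04 ± 2.34 TPM. The summed levels in replicates 1 and 2 were 10.9 and 14.1 TPM for platelet and megakaryocyte markers, 3.44 and 5.19 for endothelial, 0.69 and 1.72 for fibroblast and 0.59 and 0.30 for neutrophil markers. In bulk RNA, fewer cells of a type and less RNA per cell cannot be told apart.

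Among the 8 genes, those of urokinase and its receptor were on chromatin at higher levels than those that start or restrain coagulation. Of the 8 genes, 6 were at 1 TPM or more in both libraries, where 34.7% of protein-coding genes were. F3 and Thbd were not. At limits of 0.5 and 5 TPM, 7 and 3 of the 8 passed, against 40.5% and 18.8% of protein-coding genes. In replicate 1 alone 6 of 8 passed 1 TPM and in replicate 2 alone 7, where 35.1% and 40% of protein-coding genes did. The second quantification also gave 6 of 8, against 45.1%, and TPM rescaled over protein-coding genes gave 8 of 8, against 48%. The median over the 8 was 3.14 ± 1.63 TPM (SD of the 2 library medians), against 0.190 ± 0.0636 for all protein-coding genes and 8.18 ± 3.25 for those at 1 TPM or more. The urokinase receptor gene stood highest and thrombomodulin lowest, and the levels between them spanned the range of ordinary expressed genes.

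**Figure D1:**
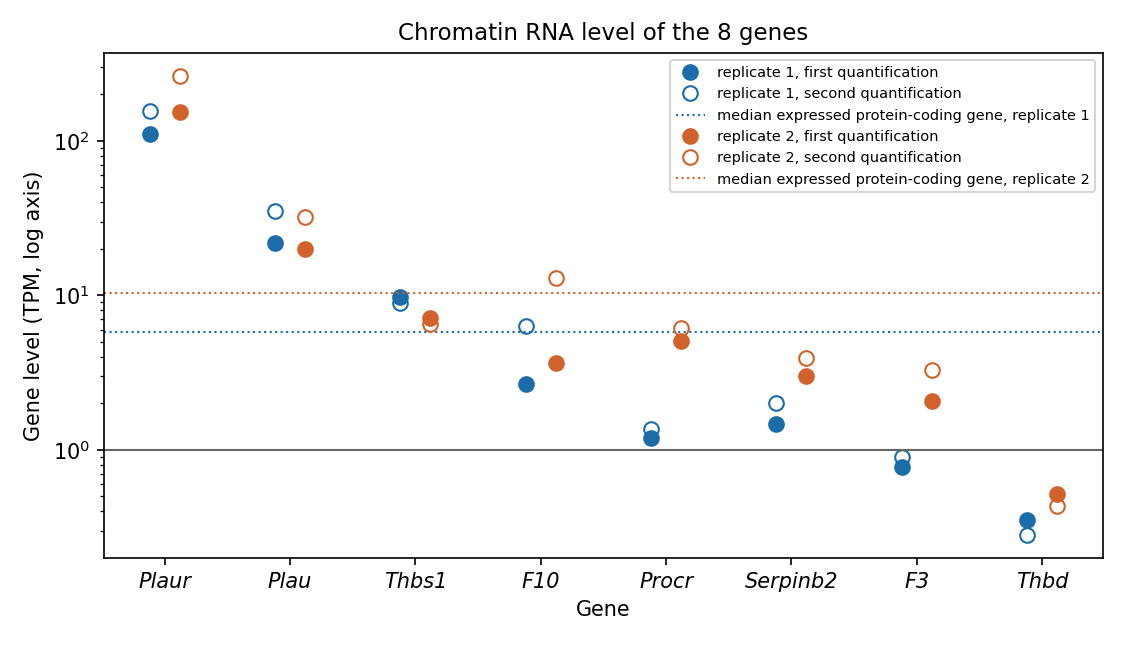
Level of each gene in TPM (log axis) in replicates 1 and 2, by the authors' first (filled) and second (open) quantification; dotted lines are the medians of expressed protein-coding genes and the solid line is 1 TPM. Plaur and Plau lie above both medians, and Thbd lies below 1 TPM in all 4 values.

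Plaur, which encodes the receptor that holds urokinase at the cell surface (chromosome 7, 24462484 to 24475968, plus strand), was at 111 TPM in replicate 1 and 154 TPM in replicate 2, a mean of 132 ± 30.4. It ranked 202 and 289 among the 22028 protein-coding genes. That is 19.0 and 14.8 times the median expressed gene. The protein-coding genes closest to it in log2(TPM + 1), over only 2 libraries, were Leng8 (110 and 151 TPM, distance 0.0288) and Rhbdf2 (113 and 153 TPM, distance 0.0343).

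Plau, the gene of the protease itself (chromosome 14, 20836660 to 20843385, plus strand), was at 21.7 and 19.9 TPM (20.8 ± 1.27). Both libraries put it above the median expressed gene, 3.73 and 1.91 times. The close agreement of the TPM values hides a fall in rank, from 1370 to 2454 among protein-coding genes. Serpinb2, the intracellular and secreted urokinase inhibitor (chromosome 1, 107511423 to 107535478, plus strand), was much lower, at 1.46 and 2.99 TPM (2.23 ± 1.08), from 75 and 166 counts. The 3' part of the annotated Serpinb2 gene overlaps Serpinb10 by 6476 bases on the same strand, and Serpinb10 was listed at 0 in both libraries. Only Serpinb2-203 and Serpinb2-204 reach that part, and both had 0 counts. The protein-coding transcripts of Serpinb2 end before it. The ranges of Plaur, Plau and Serpinb2 did not overlap one another.

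Thbs1 (chromosome 2, 118111876 to 118127133, plus strand) was at 9.77 and 7.10 TPM (8.44 ± 1.89). It was 1.68 times the median expressed gene in replicate 1 and 0.681 times in replicate 2. A lincRNA on the other strand inside it, Gm29233, was listed at 0 in the first quantification but at 2.35 and 0.412 TPM in the second. Neither the labels nor the files say if strand was taken into account, so reads of a gene and of its antisense partner may not be told apart.

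F10 (chromosome 8, 13037308 to 13056676, plus strand), the gene of the protease at which the coagulation pathways meet, was at 2.65 and 3.64 TPM (3.15 ± 0.70), from 111 and 182 counts. Factor X is mainly a liver product, and the hepatocyte markers were at 0 here. Its neighbours belong to the same pathway. F7, which ends 1498 bases upstream and encodes the tissue factor ligand, was at 1.23 and 2.11 TPM. Proz, which starts 4237 bases downstream and encodes a cofactor for inhibition of factor Xa, was at 0.35 and 0.78 TPM. All 3 lie on the plus strand, and F10 was the highest of the 3 in both libraries.

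F3 (chromosome 3, 121723537 to 121735048, plus strand) was at 0.77 TPM in replicate 1 and 2.06 TPM in replicate 2. These rest on 24 and 67 counts, or 1.12 CPM (counts scaled to library size; exact Clopper-Pearson 95% interval 0.717 to 1.67) and 2.26 CPM (1.75 to 2.87). Intervals here cover counting error only. Tissue factor RNA was thus detected in both libraries, yet below the level of 1 TPM in replicate 1. Its 2 values were 0.132 and 0.198 times the median expressed gene. Gm43823, a minus-strand gene of unconfirmed status that lies 134 bases before F3, was at 0.02 and 0.08 TPM in the first quantification and at 1.40 and 4.90 TPM in the second.

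Procr (chromosome 2, 155751117 to 155755471, plus strand) was at 1.20 and 5.08 TPM (3.14 ± 2.74), from 30 and 170 counts. Its spread relative to its mean was the widest of the 8. Thbd (chromosome 2, 148404466 to 148408188, minus strand), a gene with a single exon of 3723 bases and no intron, was lowest at 0.35 and 0.52 TPM (0.435 ± 0.120). It had 36 and 58 counts, or 1.68 CPM (1.18 to 2.32) and 1.96 CPM (1.49 to 2.53), above the 0.140 and 0.101 CPM that 3 counts stand for. Thbd was therefore detected at a low level per base of RNA.

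In order of mean TPM the genes ran Plaur, Plau, Thbs1, F10, Procr, Serpinb2, F3 and Thbd. The first 3 steps of this order, and the step from F3 to Thbd, separated genes whose library ranges did not overlap. F10 and Procr, Procr and Serpinb2, and Serpinb2 and F3 overlapped in range. F10 was above Procr, and Procr above Serpinb2, in 1 of 2 libraries each, so these orders are not resolved. Serpinb2 was above F3 in TPM in 2 of 2 libraries. The CPM intervals of Serpinb2 and F3 were 2.75 to 4.38 against 0.717 to 1.67 in replicate 1. In replicate 2 they were 4.78 to 6.52 against 1.75 to 2.87. These did not overlap within either library, but CPM is not scaled by length. The effective length was 1724 and 1739 bases for Serpinb2 in replicates 1 and 2, against 1044 and 1019 for F3. The CPM intervals therefore do not resolve the order of Serpinb2 and F3 in TPM. The second quantification kept Plaur, Plau and Thbd in place but put F10 at 6.30 and 12.9 TPM, overlapping Thbs1 at 8.91 and 6.48 TPM. For F10 this was 2.38 and 3.56 times the first quantification, where the median expressed protein-coding gene differed 1.35 and 1.51 times. The surplus sat on F10-202, a protein-coding transcript of 2503 bases, which had 60.3 and 113 counts in the first quantification and 439 and 1155 in the second. The level of F10 therefore depends on the quantification.

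Which transcripts carried the reads separated the genes further. Chromatin holds RNA that is still being spliced, and the annotation has transcripts in which an intron is kept (retained intron) or which are predicted to be degraded (nonsense-mediated decay). For 2 of the 8 genes, Plaur and Procr, less than 50% of transcript TPM was on protein-coding transcripts, averaged over the libraries. F3 was below 50% in replicate 1 alone, at 45.5%, and was at 63.4% in replicate 2. Taken per library, 46.6% and 48.1% of expressed protein-coding genes were below 50% in replicates 1 and 2. F3 and Thbd are not among those expressed genes. In the second quantification F3 joined Plaur and Procr in the average over the libraries, against 54.7% and 57.3% of such genes per library.

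Plaur had 63.2 ± 0.579% of its TPM on 3 retained intron transcripts, 22.1 ± 4.62% on decay transcripts and 14.7 ± 4.05% on its protein-coding transcript. The second quantification gave 61.4 ± 1.23% on retained introns. Plaur-205, a transcript of 347 bases that ends inside intron 2, was the highest at 32.7 and 46.2 TPM. Plaur-202, which ends inside intron 5, was at 27.5 and 33.4 TPM, and Plaur-204, which keeps all 518 bases of intron 4, at 9.41 and 18.3 TPM. The full protein-coding Plaur-201 was at 13.1 and 27.0 TPM. Short transcripts raise a TPM per read: in counts the retained intron share was 57.7 ± 1.17% and the protein-coding share 29.3 ± 5.05%.

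The exon ends at which these transcripts run on into an intron are shown for Plaur and, for comparison, Procr and F3. Each has 12 exon bases in lower case and 18 intron bases in capitals, read from the GENCODE transcript, mm10, plus strand. The positions are chr7:24465230-24465259 (Plaur-205, intron 2 of 6), chr7:24472043-24472072 (Plaur-204, intron 4), chr7:24472696-24472725 (Plaur-202, intron 5), chr2:155754516-155754545 (Procr-203, intron 3 of 3) and chr3:121731691-121731720 (F3-203, intron 4 of 5).
Plaur-205: gggaatggcaagGTGAGGCTGACCACCCCC
Plaur-204: agagcacagaaaGTAAGCTCCCATCTGCTG
Plaur-202: atggtggcccagGTGAGGAGCAGGAAAGAT
Procr-203: aaaacatgaaagGTCTGAGGGGATTCTGGC
F3-203: agcacgggaaagGTAAGAGATTTTCCATTT
Every one of these 5 introns opens with GT, the usual first bases of a donor splice site, and all 5 exon ends are coding sequence.

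**Figure D2:**
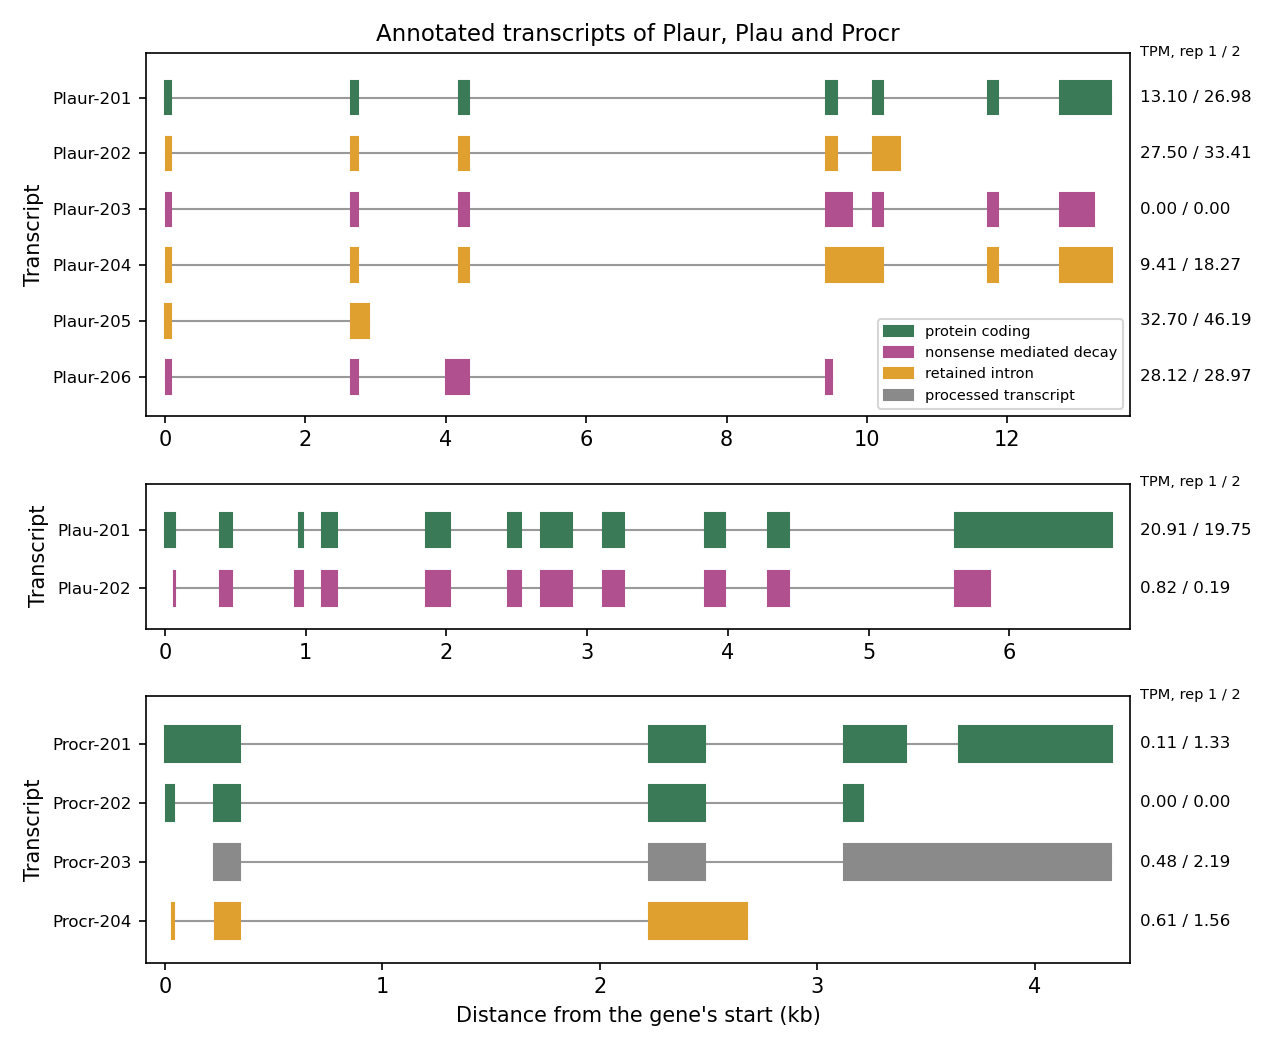
Exons (boxes) of the annotated transcripts of Plaur, Plau and Procr by distance from the gene start in kb, coloured by annotated class, with TPM in replicates 1 and 2 at the right. The short Plaur-205 carries 32.7 and 46.2 TPM, more than the full-length Plaur-201 at 13.1 and 27.0.

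On protein-coding transcripts alone, Plaur (13.1 and 27.0 TPM) and Plau (20.9 and 19.8 TPM) overlapped, at 20.0 ± 9.82 and 20.3 ± 0.820 TPM. In the second quantification the same transcript, Plaur-201, was at 22.1 and 39.7 TPM and Plau-201 at 20.4 and 21.9 TPM, without overlap. Most of the difference between the receptor gene and the protease gene in total TPM was thus on Plaur transcripts of the other classes. Plau itself was quantified in 2 ways. Its decay transcript Plau-202, which shares 1412 of its 1437 bases with Plau-201, took 2.36 ± 2.00% of Plau TPM in the first quantification and 36.9 ± 6.85% in the second. Reads within shared exons cannot by themselves tell these transcripts apart.

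Procr had 9.17% and 26.2% of its TPM on protein-coding transcripts in replicates 1 and 2, 40.8 ± 14.2% on a retained intron transcript and 41.6 ± 2.20% on the processed transcript Procr-203, which keeps all 241 bases of the last intron. Its protein-coding transcripts were at 0.11 and 1.33 TPM. On protein-coding transcripts alone 5 of the 8 genes were at 1 TPM or more in both libraries, against 28.1% of protein-coding genes. On that scale Procr was below Thbd (0.35 and 0.52 TPM) in replicate 1, and F3 (0.35 and 1.30 TPM) equalled Thbd there. The place of Thbd below F3 and Procr is thus not resolved on protein-coding transcripts. F3 had 54.4 ± 12.7% on protein-coding and 30.5 ± 0.954% on retained intron transcripts, and the second quantification lowered the former to 35.9 ± 2.64%. Thbs1 had 92.1 ± 7.48% on its protein-coding transcript. Serpinb2 had 100% on its 2 protein-coding transcripts and none on 2 annotated decay transcripts. F10 and Thbd have only protein-coding transcripts in the annotation, which fixes their share at 100%.

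**Figure D3:**
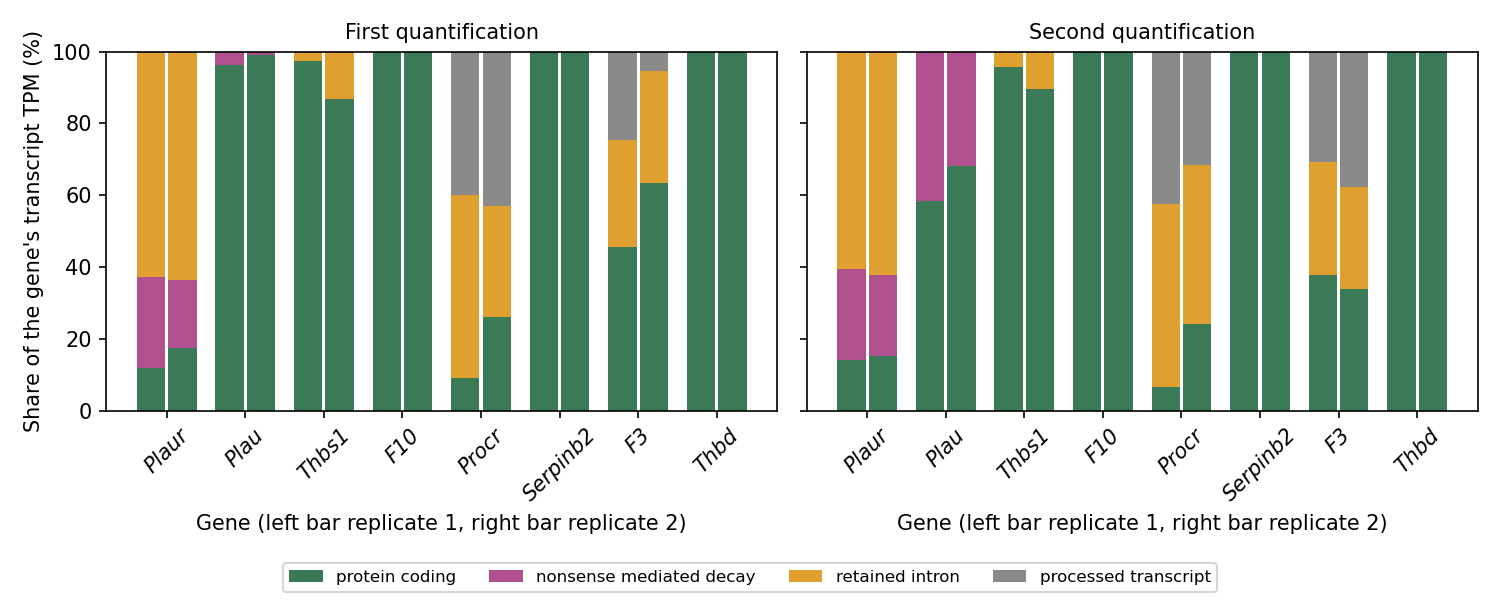
Share of each gene's transcript TPM (%) by annotated transcript class, replicate 1 left and replicate 2 right for each gene, in the first and second quantification. Plaur and Procr are mostly on transcripts that are not protein-coding in both, and Plau differs between the quantifications.

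The 2 libraries were then compared gene by gene. The measure was the CPM ratio, replicate 2 over replicate 1, divided by its median over expressed protein-coding genes, which was 1.41. With 1 library on each side there is no test, and the 95% intervals cover counting error only. The genes differed in both directions: Procr stood 2.91-fold higher in replicate 2 (1.97 to 4.45), whereas Thbs1 was at 0.361-fold (0.334 to 0.390) and Plau at 0.514-fold (0.476 to 0.555). At 2-fold, 1 of the 8 genes was higher (7.21% of 10981 protein-coding genes were) and 1 lower (3.58%). Together 2 of 8 were 2-fold apart, where 10.8% of protein-coding genes were, and 2 genes are too few to set against that share.

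Plaur stood at 0.895-fold (0.846 to 0.947), so the receptor gene kept close to the typical gene while the protease gene did not. Serpinb2 was at 1.14-fold (0.861 to 1.52), F3 at 1.44-fold (0.888 to 2.39), F10 at 0.843-fold (0.662 to 1.08) and Thbd at 0.828-fold (0.537 to 1.29). The intervals of these 4 genes include 1. For F3 the interval reaches past 2-fold, so a difference of that size lies within its counting error.

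**Figure D4:**
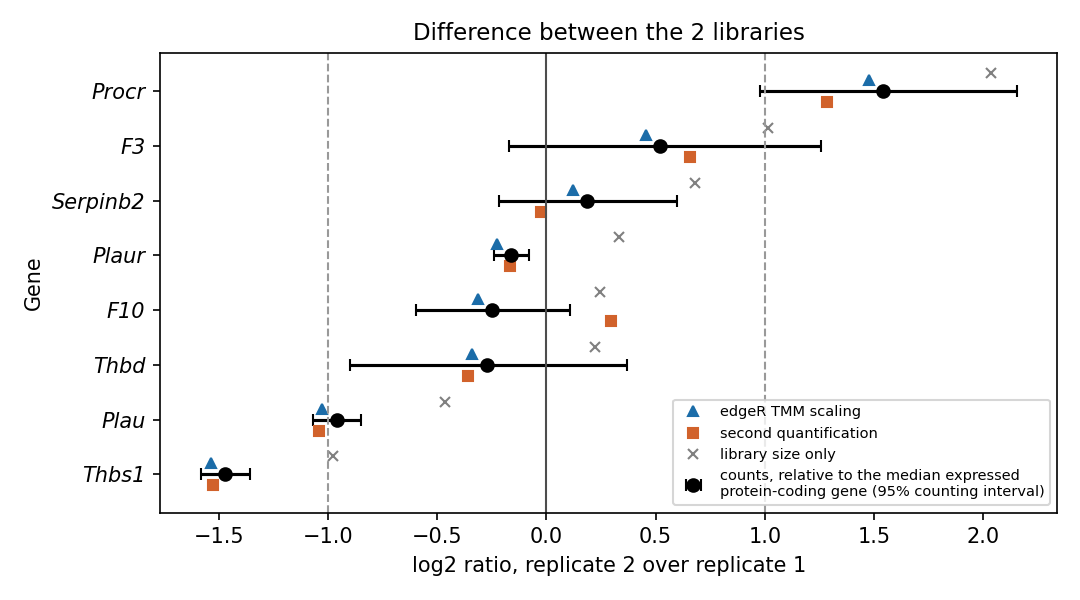
Log2 ratio of each gene, replicate 2 over replicate 1: black points are counts relative to the median expressed protein-coding gene with 95% counting intervals, and other symbols are other scalings or the second quantification. Procr lies at 1.54 and Thbs1 at -1.47, while Plau lies at -0.96, beside the dashed 2-fold line.

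Plau crossed the 2-fold line with edgeR's TMM scaling (0.491-fold) and in the second quantification (0.486-fold), where 4.71% and 2.47% of protein-coding genes were lower by that much. With Plau, 3 of 8 were 2-fold apart by either of these and by DESeq2 size factors. The shares of protein-coding genes were 10.6% with TMM, 10.6% with DESeq2 and 8.56% in the second quantification. Scaling by library size alone put Thbs1 at 0.509-fold, Plau at 0.724-fold and Plaur at 1.26-fold, since it leaves in the shift of the typical gene. F3 was then at 2.02-fold and Procr at 4.10-fold, where 22.4% of protein-coding genes were 2-fold higher. On TPM + 1 the ratio of Procr was 1.74-fold, as the added 1 shrinks changes of low genes, and Thbs1 alone of the 8 was 2-fold apart, against 3.6% of protein-coding genes. F10 was above the typical gene in the second quantification, at 1.23-fold, and below it in the first. Some macrophage markers were also lower in replicate 2 by the same measure, Csf1r at 0.486-fold and Itgam at 0.460-fold, while Adgre1 was at 1.16-fold. The fibroblast marker Col1a1 was at 2.16-fold (24 and 101 counts), and of the endothelial markers Cdh5 was at 0.243-fold (19 and 9 counts) and Kdr at 1.67-fold (137 and 444 counts). The part of cell composition in these differences was not tested.

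Among other genes of coagulation and fibrinolysis, those of fibrinolysis and plasminogen binding held the most members at 1 TPM or more. Of 61 further genes in 6 lists, 17 (27.9%) were at 1 TPM or more in both libraries, against 34.7% of all protein-coding genes. The second quantification gave 21, against 45.1%. Fibrinolysis and plasminogen binding had 8 of 13, with a median over the list of 9.79 TPM. Its highest were Plgrkt, a plasminogen receptor of the membrane (71.7 and 159 TPM), Anxa2, which encodes annexin A2 (89.6 and 104 TPM), and Lrp1, the endocytic receptor that clears protease and inhibitor complexes (62.8 and 44.96 TPM). Plasminogen itself, Plg, had 0 counts in both libraries. The tissue-type activator gene Plat was at 4.86 and 5.53 TPM, below Plau in both. Plat and Plg are named after their values were seen.

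Of 15 coagulation factor genes 3 passed: Vwf, the gene of the von Willebrand platelet adhesion protein (31.6 and 41.7 TPM), F13a1, the fibrin cross-linking subunit (2.10 and 3.97 TPM), and F7. Another 8 of the 15 had 0 counts in both libraries. Of 10 coagulation inhibitor genes 2 passed, Anxa5, which encodes the phospholipid-binding annexin A5 (109 and 121 TPM), and Serpind1, which encodes heparin cofactor II (2.42 and 5.49 TPM). Serpind1 lies wholly inside Pi4ka, a gene on the other strand at 16.6 and 22.8 TPM. In the second quantification 4 of the 10 passed, with Tfpi (1.69 and 3.46 TPM) and Serpinc1 (4.45 and 9.80 TPM) added. None of 4 protease-activated receptor genes passed in the first quantification, and F2rl2 did in the second, at 1.26 and 3.57 TPM. The thrombospondin receptor genes Cd47 (23.8 and 48.1 TPM) and Cd36 (6.28 and 5.27 TPM) passed, of 6 in their list, and no other thrombospondin gene did. Of 13 other clade B serpins Serpinb6a (14.1 and 31.4 TPM) and Serpinb8 (5.25 and 5.84 TPM) passed, and 7 had 0 counts in both. One of those 7, Serpinb13, was at 4.69 and 26.1 TPM in the second quantification.

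**Figure D5:**
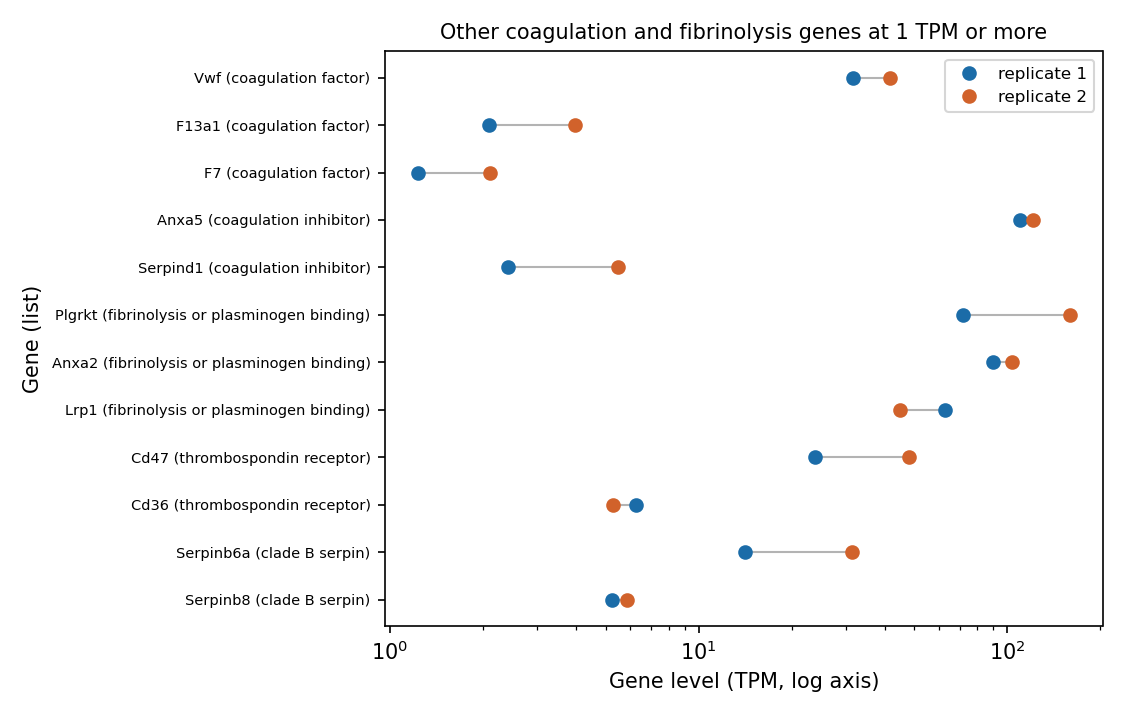
Level in TPM (log axis) of other coagulation, fibrinolysis, thrombospondin receptor and clade B serpin genes at 1 TPM or more in both libraries, at most the 3 highest of each list, with replicate 1 and replicate 2 joined by a line. Plgrkt, Anxa5 and Anxa2 are highest, and of the genes plotted Lrp1 and Cd36 have the lower value in replicate 2.

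By the same relative ratio, 27 of the 61 genes had a summed count of 20 or more, 0 were 2-fold higher in replicate 2 and 2 were lower, where 7.21% and 3.58% of protein-coding genes were. These were Lrp1 at 0.378-fold and Igf2r, a receptor that also binds the urokinase receptor, at 0.461-fold. In the second quantification the count ratios were 0.368-fold for Lrp1 and 0.462-fold for Igf2r, although the TPM of Igf2r there was 105 and 170.4. Igf2r overlaps the antisense gene Airn (26.8 and 37.6 TPM) by 28354 bases, so its counts may include reads of that gene.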

How the data were processed

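Chromatin RNA of 2 libraries in 1 group was analysed. For each library the authors deposited expected (estimated) counts and TPM per gene and per transcript, made from reads aligned to the GENCODE M21 transcriptome of mm10, per the deposited text beside the tables (the first quantification). The authors also deposited estimated counts and TPM per transcript computed from the reads and a transcript index (the second). The programs, their versions and any use of strand were not given in the sources used here. Gene symbols, positions and transcript classes came from GENCODE M21. Rows that named no gene (26345) held 0.409% and 0.277% of counts and were left out.

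The members and lists were chosen with earlier results of these data known. A gene was called expressed at 1 TPM or more in both libraries. All 8 members were named, of each list the expressed genes with the 3 highest mean TPM, genes within 10 kb of a member at 1 TPM or more in either library or in a list, and the 2 genes nearest the highest member. Any other gene was named after its values were seen, and not every listed gene is reported here. Ratios used CPM for genes with a summed rounded count of 20 or more, and a fold of 2 or 0.5. Intervals are exact (Clopper-Pearson or conditional binomial, 95%). No test between groups was run, since there is only 1. To check only that the libraries were not copies of 1 library, their counts were compared: chi-square divided by its 14441 degrees of freedom was 489, more than counting noise. The ratio script was tested on simulated data. Alternatives were edgeR 4.0.16 TMM factors, DESeq2 1.42.0 size factors, library size, TPM with pseudocounts of 1 and 0.1, other TPM limits, the second quantification and each library alone. Protein-coding transcripts alone were added after the data were seen. SciPy 1.17.1 and matplotlib 3.10.9 were used.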

Additional observations from a re-analysis of the deposited data

How the results depend on the processing

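The number of the 8 genes at 1 TPM or more in both libraries (6) was 3 at a limit of 5 TPM, 7 at 0.5 TPM and 8 with TPM rescaled over protein-coding genes, and 5 on protein-coding transcripts alone. It was 6 to 7 with each library alone. The median level of 3.14 TPM was 5.73 in the second quantification, 15.6 with TPM rescaled over protein-coding genes, 5.79 over the genes at 1 TPM or more only and 2.06 to 4.36 with each library alone. The 2 genes that differed 2-fold between the libraries were 1 on TPM + 1 and 3 with TMM, with DESeq2 size factors or in the second quantification. The 2 genes mostly on transcripts that are not protein-coding were 3 in the second quantification and 2 to 3 with each library alone. Of 40 alternative TPM values of single genes 12 moved by more than 1 SD, of 56 alternative ratios 11 left the counting interval, and of 36 alternative class shares 9 moved by more than 1 SD. These tallies include settings that could not move. With 2 libraries, each value alone lies within 1 SD of their mean by arithmetic. Ratios without a minimum count equal the main ratios for all 8 genes. The tallies are therefore no measure of robustness. The causes of the moves were not tested. The counts of F3 (24 and 67), Procr (30 and 170) and Thbd (36 and 58) limit what can be said of their transcripts. No paired analysis was possible because the series has 1 group.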

Other observations

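Vwf is known mainly from endothelial cells and megakaryocytes, yet it ranked with the well-expressed genes here, from 4450 and 5218 counts. Most of these counts, 81.1% in replicate 1 and 66.5% in replicate 2, were on the long protein-coding transcript Vwf-203 of 8834 bases, at 14.1 and 12.7 TPM. The endothelial markers Tek, Tie1 and Emcn were at 0.01 TPM or less and Cdh5 at 0.74 and 0.08 TPM, whereas Egfl7 was at 1.60 and 1.64 TPM and Kdr at 0.94 and 3.17 TPM. In the second quantification Tie1 was at 0.501 and 1.31 TPM and Pecam1 at 3.36 and 8.68 TPM. The platelet and megakaryocyte markers Treml1 (5.38 and 8.69 TPM), Pf4 (3.70 and 3.68 TPM) and Itga2b (1.29 and 1.32 TPM) were also detected. Relative to the typical expressed gene, Vwf was at 0.603-fold in replicate 2. It was picked out after its values were seen.

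Plgrkt starts 64 bases from Cd274, the PD-L1 gene, which runs the other way and was at 58.4 and 216 TPM. Anxa2 overlaps the antisense gene Gm16144 (14.5 and 28.6 TPM) by 2570 bases, and Serpinb6a overlaps the kinase gene Ripk1 (15.4 and 36.01 TPM) by 432 bases. The protease-activated receptor gene F2rl2 was at 0.90 and 1.98 TPM in the first quantification, just short of the limit in replicate 1.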
